A study of Saccharomyces cerevisiae with 10 samples.

Results

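The mitochondrial ribosomal protein genes of budding yeast were taken as all nuclear genes whose standard symbol is MRPL, MRPS or RSM followed by a number. The rule found 54 genes in the RefSeq annotation, and all 54 were present in the deposited table of 6663 features. Of these, 34 encode proteins of the large subunit (MRPL) and 20 encode proteins of the small subunit (9 MRPS and 11 RSM). All 54 were above a mean of 1 FPKM, the filter that left 6541 features for comparison, and none was listed at 0 in any strain. FPKM counts fragments scaled to transcript length and to library size, a scaling meant to let genes of different length be compared.

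RNA was profiled in 5 strains of haploid BY4741, a laboratory yeast auxotrophic for several nutrients, grown to mid-log phase at 30 °C in YPD, a rich glucose medium. Set1, absent in set1∆, is the methyltransferase of lysine 4 on histone H3. Set5, absent in set5∆, is a methyltransferase of histone H4. The set1∆ set5∆ strain lacks both, SET5 Y402A carries a Set5 with 1 substituted residue, and WT carries neither change. The labels list 2 biological replicates per strain, 10 libraries in all, but the table holds 1 value for each strain and gene. No spread between replicates can therefore be computed, no test was possible, and every difference below describes 1 pair of strain values.

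The labels held for the targeted genes. SET1 read 0.0328 FPKM in set1∆ and 0.0324 in set1∆ set5∆, against 24.3 in WT, and SET5 read 0.0545 FPKM in set5∆ and 0.0167 in set1∆ set5∆, against 34.6 in WT. SET5 Y402A kept its SET5 transcript at 41.8 FPKM. The depth of the libraries is unknown. The FPKM of a strain summed to between 2056298, in set1∆ set5∆, and 2426410, in set5∆.

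Mitochondria keep a ribosome of their own, related to that of bacteria, which translates the few proteins encoded in mitochondrial DNA, most of them subunits of the respiratory chain and of ATP synthase. Its ribosomal RNAs are encoded in mitochondrial DNA, whereas nearly all of its proteins are encoded in the nucleus, made in the cytosol and imported. The large subunit carries the peptidyl transferase centre and the exit tunnel, and the small subunit holds the messenger RNA and the decoding centre. In budding yeast, transcripts of these proteins are the best known targets of Puf3, an RNA-binding protein that recognises the sequence TGTANATA (N is any base) behind the coding region and, in glucose medium, promotes decay of the bound transcript.

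The Puf3 sequence was the feature that most clearly joined the members. Within 200 bases after the stop codon, on the transcript strand, TGTANATA occurred in 53 of 54 members (98.1%), in 34 of 34 of the large subunit and 19 of 20 of the small. It occurred in 844 of 6002 nuclear coding genes of the annotation (14.1%). RSM22 was the member without it. In the 53 others the first match lay a median of 53 bases behind the stop codon, and in 49 of them it began fewer than 100 bases behind it. The sites of the members that stood lowest in the double deletion (MRPL38, MRPS8, MRPL6, MRPL31), of 2 that stood highest in set1∆ apart from RSM22 (MRPL33, RSM18), of the most abundant member (MRPL39), and of the 4 members whose site lies nearest the stop codon (MRPS5, RSM19, MRPL49, MRPL3) are printed here from the RefSeq genome R64, with the motif in capitals and 8 flanking bases on each side. For a member with several matches the one nearest the stop codon is given.
MRPL38: taaccaccTGTATATAttgcttaa
MRPS8: acggaccaTGTAAATAataatatt
MRPL6: gaatacctTGTAAATAtcctatga
MRPL31: atttcatcTGTATATAgtttaatc
MRPL33: cttatataTGTATATAgtattatt
RSM18: gttctgtcTGTAAATAtacaatat
MRPL39: atttatccTGTAAATAagtaatgg
MRPS5: aaatactaTGTACATAcacacgca
RSM19: ggatctagTGTATATAgatttcta
MRPL49: tagggataTGTACATAtacgcata
MRPL3: tgccatttTGTAGATAgagaactc

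The 25 mitochondrial ribosomal proteins with other names, such as MRP2, IMG2 and MNP1, held the motif in 25 of 25 genes. The nuclear subunits of the respiratory chain held it in 6 of 36 and the cytosolic ribosomal proteins in 6 of 136. A match is a string of letters and not a measured binding site. Sequences before the start codon were less uniform. CCAAT, the core of the sequence bound by the Hap complex, occurred on either strand within 250 bases upstream of the start codon in 16 of 54 members (29.6%), in 31 of 36 respiratory chain genes (86.1%) and in 35.4% of all coding genes. TTACCCG, the core bound by the general factor Reb1, occurred in 8 members (14.8%) and in 7.03% of all coding genes.

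**Figure D1:**
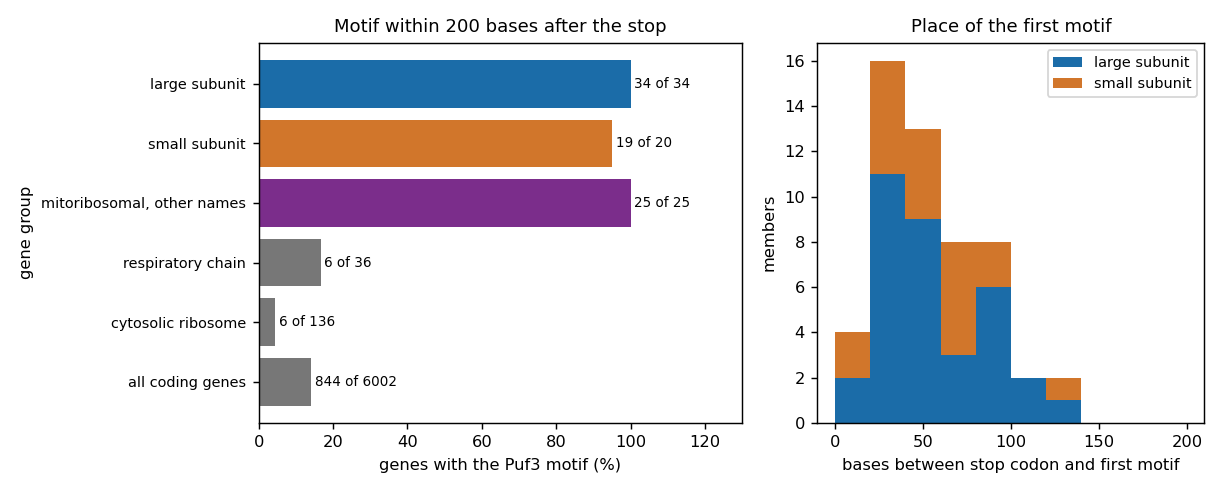
Left, percentage of genes with the Puf3 motif within 200 bases after the stop codon, by gene group, with counts beside the bars. Right, number of members (stacked by subunit) by the distance from the stop codon to the first motif, in bases. Nearly all mitochondrial ribosomal protein genes have the motif, against 14.1% of all coding genes, and most first motifs lie within 100 bases.

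The members were moderately expressed and stayed within a narrow band over the strains. The median level was 72.4 FPKM in set1∆, 80.1 in set5∆, 68.1 in set1∆ set5∆, 78.4 in SET5 Y402A and 78.1 in WT, where the quartiles were 58.6 and 123. All features compared had a median of 42.7 FPKM in WT. The double deletion thus had the lowest median and set5∆ the highest. These strains also had the lowest and the highest sum of FPKM, in that order. A member's highest strain value exceeded its lowest by a median of 1.24 times, from 1.05 times for MRPL22 to 1.86 times for MRPL38. No member differed 2-fold from WT in any mutant. Over all features, the shares at least 2-fold higher were 2.37% in set1∆, 0.994% in set5∆, 2.83% in set1∆ set5∆ and 1.83% in SET5 Y402A, and those at least 2-fold lower were 0.489%, 0.581%, 0.520% and 0.321% in the same order.

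By subunit, the median over the large subunit was 69.5 FPKM in set1∆ set5∆ and 78.1 in WT, and over the small subunit it was 65.0 FPKM in set1∆ set5∆ and 73.1 in WT. The most abundant large-subunit transcripts were MRPL39 (mean 483 FPKM over the strains), MRPL33 (257) and MRPL44 (245), and the scarcest were MRPL38 (17.4), MRPL24 (40.6) and MRPL4 (45.9). In the small subunit MRPS12, a counterpart of a bacterial protein of the decoding centre, led with a mean of 321 FPKM, before RSM19 (230) and MRPS16 (218). RSM22, a methyltransferase-like protein associated with the small subunit, was the scarcest at 23.9 FPKM, below MRPS28 (45.2) and MRPS5 (46.7). The proteins of 1 ribosome thus came from transcripts whose FPKM differed over a wide range within each subunit. These values went with coding length. In WT the 27 members of shorter coding sequence had a median of 126 FPKM and the 27 longer ones of 62.4. Whether FPKM reads high for short transcripts was not tested, so the order of abundance may partly be one of length.

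The double deletion showed the clearest difference from WT. In set1∆ set5∆ 46 of 54 members read below WT (85.2%), against 49.3% of all features compared, and the median log2 ratio over the members was -0.20, against 0.01 over all features. Ratios are log2 of (FPKM + 1) in the first strain over (FPKM + 1) in the second. A step of 1.2-fold, 0.26 on the log2 scale, was used because the members differ little. At least that much lower were 17 members (31.5%), against 17.7% of all features. At least 1.2-fold higher was 1 member, RSM22 (1.85%), against 22.1% of all features. In 39 members the double deletion was the lowest of the 5 strains (72.2%), against 26.9% of all features. This strain also had the smallest sum of FPKM, and the count of lowest strains was not made with equal sums. With bulk RNA from whole cultures, fewer cells with the transcript and less transcript per cell cannot be told apart.

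This difference depends on how the strains are put on a common scale. With every strain brought to the same sum of FPKM the median over all features moved to 0.20 and that over the members to 0.00, so the members lay 0.20 below all features, as they did by 0.20 in the deposited values. On that scale 26 members read below WT (48.1%), against 24.4% of all features. At least 1.2-fold lower were 4 members (7.41%), against 5.49% of all features, and at least 1.2-fold higher were 7 (13.0%), against 41.8%. With quantile normalization, which forces 1 distribution on every strain, they lay 0.16 below. The level of a gene also moved with its ratio. Over all features with a mean of 50 to 100 FPKM the median log2 ratio in set1∆ set5∆ over WT was -0.04, and over the 29 members in that range it was -0.18. From 100 to 200 FPKM the medians were -0.22 for 11 members and -0.06 for all features, and from 200 to 500 FPKM they were -0.20 for 7 members and -0.11 for all features. Over the 7 members of 10 to 50 FPKM the median was -0.17, and over all features of that range it was 0.06. The members stood below all features in each of these ranges, by least in the highest.

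**Figure D2:**
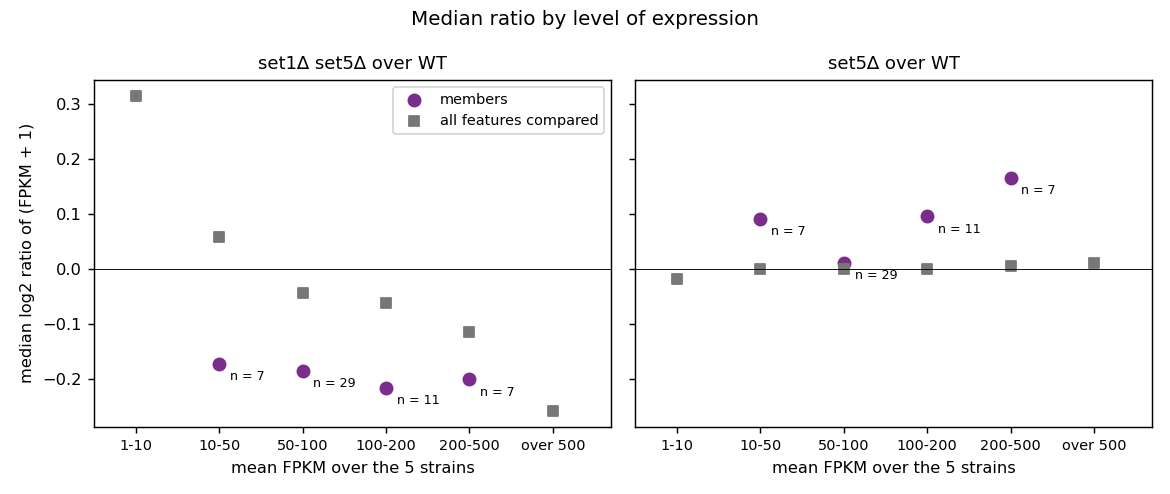
Median log2 ratio of members (circles, with their number) and of all features compared (squares) by mean FPKM over the 5 strains, for set1∆ set5∆ over WT and set5∆ over WT. In the double deletion, on the deposited scale, the members lie below all features in every range that holds members, between -0.17 and -0.22.

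Individual large-subunit transcripts in the double deletion ranged from a log2 ratio of -0.82 to 0.13. MRPL38, a counterpart of a universally conserved ribosomal protein, had 12.6 FPKM in set1∆, 19.7 in set5∆, 12.7 in set1∆ set5∆, 18.7 in SET5 Y402A and 23.3 in WT. It was lower in all 4 mutants, and lowest in the 2 strains without SET1 (log2 ratio -0.84 in set1∆ and -0.82 in set1∆ set5∆). MRPL6, another protein shared with bacteria, had 68.5 FPKM in set1∆, 95.1 in set5∆, 64.3 in set1∆ set5∆, 86.7 in SET5 Y402A and 98.5 in WT. Its log2 ratio was -0.52 in set1∆ and -0.61 in the double deletion. For MRPL8, whose bacterial counterpart sits near the exit of the tunnel, the values were 74.0 FPKM in set1∆, 91.2 in set5∆, 69.9 in set1∆ set5∆, 87.0 in SET5 Y402A and 96.3 in WT. These 3 genes share a shape in which both strains without SET1 are low and both SET5 mutants lie between them and WT.

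MRPL31, a protein particular to mitochondrial ribosomes, followed another shape. It had 109 FPKM in set1∆, 160.2 in set5∆, 92.4 in set1∆ set5∆, 159.5 in SET5 Y402A and 134 in WT. It was higher than WT in both SET5 mutants and lower in both strains without SET1, and its log2 ratio of set1∆ set5∆ over set5∆, -0.79, was the lowest of any member in that comparison. MRPL25, also named AFO1 and known for the long replicative life span of cells that lack it, had 60.6 FPKM in set1∆, 87.6 in set5∆, 58.3 in set1∆ set5∆, 87.1 in SET5 Y402A and 77.0 in WT. The order of the strains was that of MRPL31. MRPL35, a mitochondria-specific protein, had 45.8 FPKM in set1∆, 57.3 in set5∆, 44.2 in set1∆ set5∆, 56.4 in SET5 Y402A and 56.8 in WT. Here both SET5 mutants stayed at the WT level.

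The highest large-subunit ratios in the double deletion belonged to MRPL10 (0.13), MRPL40 (0.08) and MRPL36 (0.06). MRPL10 had 69.1 FPKM in set1∆, 68.6 in set5∆, 69.1 in set1∆ set5∆, 66.5 in SET5 Y402A and 63.2 in WT. WT was its lowest strain, and the mutants differed little among themselves.

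In the small subunit MRPS8 stood lowest in the double deletion. It had 85.2 FPKM in set1∆, 108 in set5∆, 71.8 in set1∆ set5∆, 113 in SET5 Y402A and 126 in WT, with a log2 ratio of -0.80 in the double deletion, -0.56 in set1∆ and -0.21 in set5∆. Its 4 mutant values were all below WT, and the double deletion was below set1∆ too. MRPS18, which despite its name belongs to another bacterial family than bacterial S18, had 126 FPKM in set1∆, 158 in set5∆, 113 in set1∆ set5∆, 138 in SET5 Y402A and 149.6 in WT. RSM26, a protein with a fold like that of superoxide dismutase, had 70.9 FPKM in set1∆, 83.5 in set5∆, 67.2 in set1∆ set5∆, 88.8 in SET5 Y402A and 87.4 in WT. Both were lowest without SET1 and SET5 together.

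RSM22 went the other way. It had 28.0 FPKM in set1∆, 22.2 in set5∆, 27.0 in set1∆ set5∆, 22.8 in SET5 Y402A and 19.8 in WT, and its log2 ratio was 0.47 in set1∆ and 0.43 in the double deletion. WT was its lowest strain. It is also the member without the Puf3 motif, the one with the longest coding sequence (1887 bases) and the only one without a ribosomal family name in the annotation. RSM18, a counterpart of a bacterial small-subunit protein, had 171 FPKM in set1∆, 149 in set5∆, 156 in set1∆ set5∆, 158 in SET5 Y402A and 141 in WT. MRPS17 had 58.5 FPKM in set1∆, 49.0 in set5∆, 55.5 in set1∆ set5∆, 52.9 in SET5 Y402A and 49.6 in WT. Both genes hold the motif and stood above WT in the double deletion, by log2 ratios of 0.14 and 0.16.

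**Figure D3:**
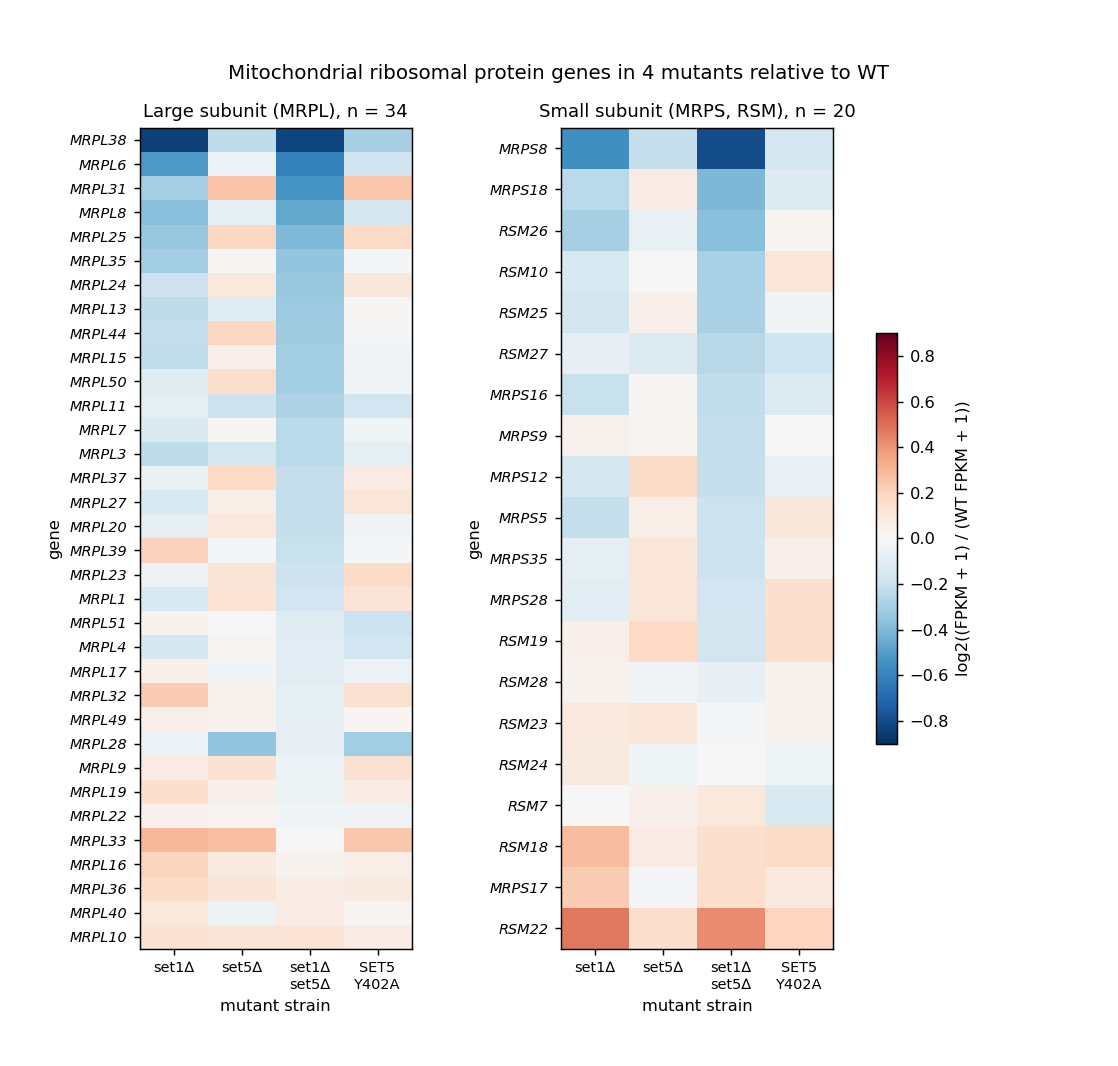
Log2 ratio of (FPKM + 1) of each member in the 4 mutants relative to WT, large subunit on the left and small subunit on the right, each sorted by the double deletion. Blue is lower and red is higher than WT; on the deposited scale the column of the double deletion is blue for 46 of 54 genes, with RSM22 at the other end.

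Loss of SET1 alone left the members nearer WT. In set1∆ 32 of 54 read below WT (59.3%), against 50.4% of all features, and the median log2 ratio was -0.08, against 0.00. With every strain brought to the same sum the sign turned, to 0.03 over the members, while all features moved to 0.10. The share of features below WT also went with level on the deposited scale. At 50 to 100 FPKM 16 of 29 members read below WT, against 56.1% of all features in that range. At 100 to 200 FPKM it was 8 of 11, against 59.5%. At 200 to 500 FPKM it was 3 of 7, against 66.0%, and at 10 to 50 FPKM 5 of 7, against 43.3%. On the deposited scale, at least 1.2-fold lower were 8 members (14.8%), against 14.7% of all features, a share equal to the background. At least 1.2-fold higher were 3 (5.56%), against 19.9%. With equal sums 4 were that much lower (7.41%, against 7.89% of all features) and 8 higher (14.8%, against 28.8%). The 8 lower ones were MRPL38 (-0.84), MRPS8 (-0.56), MRPL6 (-0.52), MRPL8 (-0.38), MRPL25 (-0.34), MRPL31 (-0.30), MRPL35 (-0.30) and RSM26 (-0.30), and the 3 higher ones were RSM22 (0.47), MRPL33 (0.30) and RSM18 (0.28).

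Large-subunit proteins with and without a bacterial counterpart had different medians in set1∆, with overlapping quartile ranges. Family names in the annotation put 21 large-subunit members with bacterial families and 13 with families found in mitochondria. The 13 mitochondrial ones had a median log2 ratio of -0.22 in set1∆ (quartiles -0.23 and -0.06), with 11 lower (84.6%). The 21 shared ones had a median of 0.04 (quartiles -0.14 and 0.15), with 10 lower (47.6%). Over all features 50.4% were lower. The lowest large-subunit members in set1∆, MRPL38 (-0.84), MRPL6 (-0.52) and MRPL8 (-0.38), were shared ones. In the double deletion the medians were -0.24, with 13 of 13 lower, and -0.10, with 17 of 21 lower (81.0%), against 49.3% of all features. The small subunit showed the opposite order in set1∆, with -0.07 over 7 mitochondrial proteins and -0.12 over 12 shared ones. The classes of the 2 subunits therefore do not line up, and with genes as the only points no test was made.

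The SET5 mutants with an intact SET1 kept the members as a group near the WT level. In set5∆ 37 of 54 read above WT (68.5%), against 50.1% of all features, with a median log2 ratio of 0.04 against 0.00. With equal sums 29 of 54 read above WT in set5∆ (53.7%), against 39.9% of all features, with a median of 0.01 against -0.03. On the deposited scale 1 member was at least 1.2-fold higher, MRPL33 at 0.27 (1.85%, against 8.30% of all features). At least 1.2-fold lower was 1 member, MRPL28 at -0.35 (1.85%, against 5.27%). In SET5 Y402A 29 of 54 read above WT (53.7%), against 48.5% of all features, with a median of 0.02 against -0.01. That median was -0.01 with each strain centred on its own median and 0.00 with quantile normalization, on the other side of 0. None was at least 1.2-fold higher (against 12.6% of all features), and 2 were lower (3.70%, against 8.47%), MRPL28 (-0.31) and MRPL38 (-0.30).

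MRPL28, a protein particular to mitochondrial ribosomes, was the member that differed most in the SET5 mutants. It had 86.9 FPKM in set1∆, 70.3 in set5∆, 85.3 in set1∆ set5∆, 72.3 in SET5 Y402A and 90.0 in WT. Both SET5 mutants with an intact SET1 were low, and the double deletion was not. Other members at the low end were MRPL38 (-0.23), MRPS8 (-0.21), MRPL11 (-0.18) and RSM27 (-0.12) in set5∆, and MRPL51 (-0.19), RSM27 (-0.18) and MRPS8 (-0.16) in SET5 Y402A. At the high end, MRPL31 (0.25), MRPL44 (0.19), MRPL25 (0.18), RSM19 (0.18), MRPS12 (0.17) and RSM22 (0.15) were among those that followed MRPL33 in set5∆, while MRPL31 (0.25), MRPL33 (0.24), RSM22 (0.19), MRPL25 (0.17), RSM18 (0.17) and RSM19 (0.16) were among the highest in SET5 Y402A.

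Set directly beside set5∆, SET5 Y402A had a median log2 ratio of -0.02 over the members, against -0.01 over all features, with 33 of 54 lower (61.1%, against 51.9%), and with equal sums the median was 0.02. No member passed 1.2-fold in either direction, against 7.43% of all features higher and 4.27% lower. The widest differences were MRPS12 (372 FPKM in set5∆, 316 in SET5 Y402A, log2 ratio -0.23), MRPL51 (-0.20), MRPL4 (-0.20) and MRPL44 (-0.20) on the low side, and RSM10 (0.12), MRPL13 (0.12) and MRPS17 (0.11) on the high side.

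The effect of losing SET5 had the opposite sign when SET1 was already absent. Against set1∆, the double deletion had lower values for 50 of 54 members (92.6%), against 49.8% of all features, with a median log2 ratio of -0.10 against 0.00. With every strain brought to the same sum these medians were -0.01 and 0.09, so the members again lay 0.10 below all features. The comparison shares no strain with set5∆ over WT, where 37 members were higher on the deposited scale and 29 with equal sums. In all, 34 members (63.0%) were higher in set5∆ than in WT and lower in the double deletion than in set1∆, against 26.4% of all features. With equal sums this held for 18 members (33.3%), against 10.3% of all features. The steps were small, and 3 members were at least 1.2-fold lower (5.56%, against 3.90% of all features), namely MRPL39 (-0.41), MRPL32 (-0.31) and MRPL33 (-0.31). None was 1.2-fold higher (against 5.47%). RSM7 (0.09), MRPL4 (0.04), MRPL38 (0.02) and MRPS5 (0.02) were the 4 members that were not lower. These counts and ratios are on the deposited scale. With equal sums 1 member was at least 1.2-fold lower (1.85%), against 2.11% of all features.

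MRPL39 and MRPL33, the most abundant of the large subunit and both short, were among the members at least 1.2-fold lower than in set1∆. This call and the single-gene values below are on the deposited scale, and were not examined with equal sums. MRPL33 was also higher in set5∆ than in WT (log2 ratio 0.27), whereas MRPL39 was not (-0.02). MRPL39 had 557 FPKM in set1∆, 477 in set5∆, 420.3 in set1∆ set5∆, 479 in SET5 Y402A and 483 in WT. On the deposited scale it was highest in set1∆ and lowest in the double deletion. MRPL33 had 282 FPKM in set1∆, 276 in set5∆, 228 in set1∆ set5∆, 271 in SET5 Y402A and 229 in WT. It was higher in each of the 3 other mutants, while the double deletion stood at the WT level. The interaction is the log2 ratio of the double deletion less those of set1∆ and set5∆, each over WT. In it MRPL33 had -0.58, MRPL31 had -0.49 and MRPL39 had -0.39, beside RSM19 (-0.39), MRPS9 (-0.27) and MRPS18 (-0.24) in the small subunit. Over the members the interaction had a median of -0.16, with 47 of 54 below 0 (87.0%), against 0.00 and 50.2% over all features. With equal sums the median was -0.03 over the members, with 30 below 0 (55.6%), and 0.13 over all features, with 26.8% below 0. On the deposited scale it was at or past the 1.2-fold step downward in 9 members (16.7%, against 11.7%) and upward in 1, MRPL28 at 0.33 (1.85%, against 10.04%).

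Loss of SET1 gave a similar order of genes in both backgrounds, among the members and over all features. Across the 54 members the log2 ratios of set1∆ over WT and of set1∆ set5∆ over set5∆, which share no strain, had a Spearman rho of 0.75 and a Pearson r of 0.74. Over all 6541 features rho was 0.73 and r was 0.40, so the likeness of order extended to all features. The level was shifted between the backgrounds. Against set5∆, the double deletion had lower values for 46 of 54 members, with a median of -0.24 (85.2%, against 49.4% of all features) and 25 at least 1.2-fold lower (46.3%, against 20.03%), while MRPL28 (0.28) and RSM22 (0.27) were at least 1.2-fold higher (3.70%, against 22.8%). With equal sums that median was -0.01, 6 members were at least 1.2-fold lower (11.1%, against 6.45%) and 7 higher (13.0%, against 46.5%). For the loss of SET5 the same comparison across members gave a rho of -0.13 and an r of -0.16, and over all features -0.04 and -0.03. The subunits had opposite signs there, with a rho of -0.32 and an r of -0.33 over the large subunit and of 0.23 and 0.30 over the small. Genes are not replicates, and no p is given for these values.

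**Figure D4:**
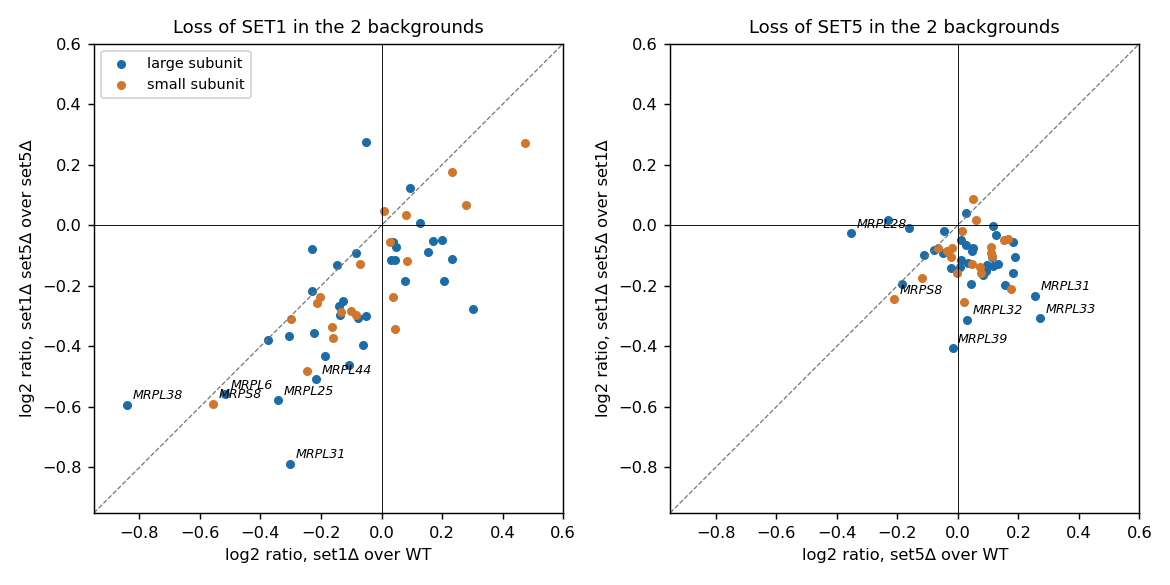
Log2 ratio of each member for the loss of SET1 (left) and of SET5 (right), with the wild-type background on the horizontal and the single-deletion background on the vertical axis; the dashed line marks equal ratios. For SET1 the members run along the diagonal and mostly below it; for SET5 they gather right of 0 and, on the deposited scale, below 0.

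The medians of the 2 subunits lay close together in every comparison. The median of the large subunit minus that of the small was 0.00 in set1∆ over WT (-0.08 and -0.08), -0.01 in set5∆ over WT (0.04 and 0.05), -0.01 in set1∆ set5∆ over WT (-0.20 and -0.19) and -0.02 in SET5 Y402A over WT (0.00 and 0.03). The quartile ranges overlapped. In the double deletion they ran from -0.32 to -0.08 over the large subunit and from -0.26 to -0.01 over the small. In that strain 30 of 34 large-subunit and 16 of 20 small-subunit genes read below WT. Against set1∆ the counts were 32 of 34 and 18 of 20.

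**Figure D5:**
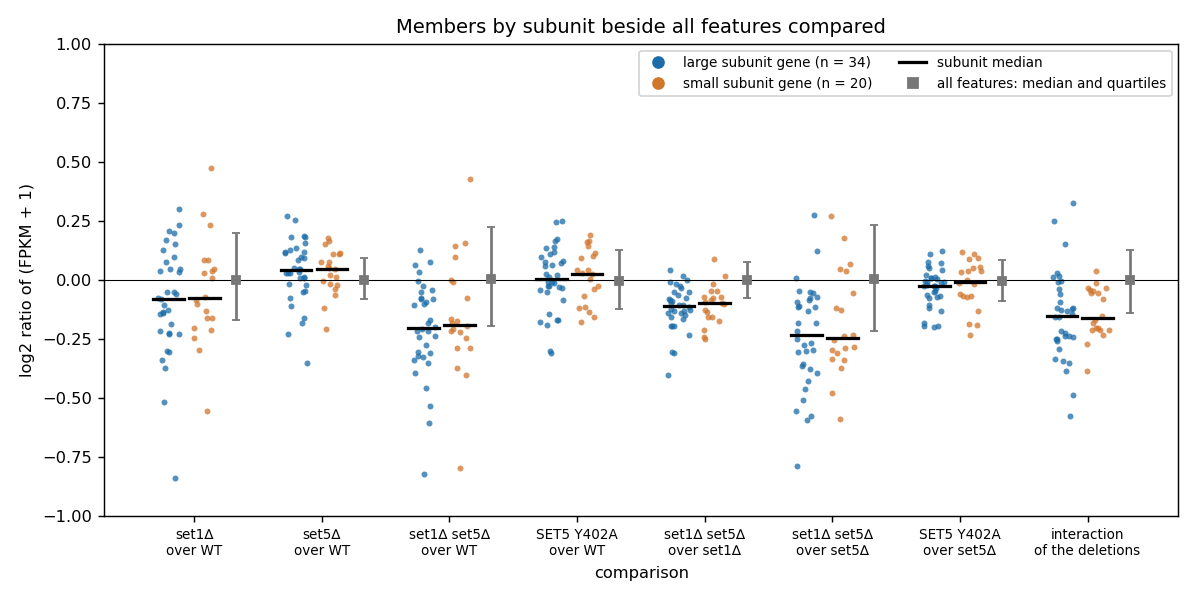
Log2 ratio of (FPKM + 1) of each member in the 8 comparisons, large subunit in blue and small subunit in orange, with subunit medians as black lines and, in grey, the median and quartiles of all 6541 features. The subunit medians lie close together everywhere and stand furthest from the grey medians in the 2 comparisons of the double deletion with WT and with set5∆.

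Both strains without SET1 stood below the 3 strains that carry it in 28 of 54 members (51.9%), against 31.4% of all features. They stood above all 3 in 4 members, MRPL10, MRPL40, MRPS17 and RSM22 (7.41%, against 31.3%). Both counts are on the deposited scale and were not made with equal sums. The strains without SET1 had smaller sums of FPKM (2199480 in set1∆ and 2056298 in set1∆ set5∆) than the 3 others (2368910 in WT). Members of shorter coding sequence had lower medians in the comparisons with the double deletion. The 27 shorter ones had a median log2 ratio of -0.21 and the 27 longer ones of -0.17 over WT. The medians were -0.14 and -0.08 over set1∆, -0.29 and -0.18 over set5∆, and -0.23 and -0.09 in the interaction. Over set5∆, 16 shorter members (59.3%) and 9 longer ones (33.3%) were at least 1.2-fold lower, against 20.03% of all features. The shorter members also had higher levels, with a median of 126 FPKM in WT against 62.4. Over all features the median of this ratio fell from 0.06 at 10 to 50 FPKM to -0.14 at 200 to 500 FPKM. Length and level were not separated here. None of the members lies among the outermost 10 genes of a chromosome end. MRPL19 and MRPL51 overlap another annotated gene, and since the libraries do not mark strand their values may include reads of it. Their log2 ratios in the double deletion were -0.04 and -0.11.

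Related gene groups were set beside the members to see how far the difference extended. The 25 mitochondrial ribosomal proteins of other names had a median log2 ratio of -0.10 in the double deletion, with 20 of 25 lower (80.0%, against 49.3% of all features). At least 1.2-fold lower were 5 of the 25, a share near the 17.7% of all features. IMG2 was lowest at -0.57 (55.3 FPKM in set1∆ set5∆ against 82.4 in WT), followed by MNP1, the counterpart of the bacterial stalk protein, at -0.39 and MRP17 at -0.38. MRP13 was the highest at 0.33. MRP2, like MRPL33, read above WT (106 FPKM) in set1∆ (125), set5∆ (125) and SET5 Y402A (146). Unlike MRPL33, it stood below WT in set1∆ set5∆, at 86.1 FPKM.

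The lists of genes that serve this ribosome had medians at or above 0 in the double deletion, with single genes on both sides of WT. Mitochondrial translation factors had a median of 0.14, with 9 of 12 higher (against 50.6% of all features) and 5 at least 1.2-fold higher (41.7%, against 22.1%), IFM1, the initiation factor, at 0.48 among them. The 3 lower ones were TUF1, the elongation factor Tu, at -0.19, MEF1, another elongation factor, at -0.14, and MRF1, the release factor, with 16.8 FPKM in set1∆, 32.6 in set5∆, 16.1 in set1∆ set5∆, 34.2 in SET5 Y402A and 29.9 in WT. Its log2 ratio in the double deletion was -0.86, below the lowest among the members (-0.82). Translational activators, which act on single mitochondrial messenger RNAs, had a median of 0.18, with 13 of 16 higher (81.2%) and 7 at least 1.2-fold higher (43.8%), CBS2 (0.52) and ATP22 (0.47) among them. Ribosome assembly and membrane anchoring genes reached 0.13 as their median, with 6 of 11 higher, and held MRM1, an rRNA methyltransferase, at 0.39 and MRM2 at -0.32. Aminoacyl-tRNA synthetases of the organelle had a median of 0.00, with 8 of 14 higher and SLM5 at 0.60. No test of these lists against the members was made. These genes were scarcer than the members: the median of the mean level was 20.6 FPKM for translation factors, 23.7 for activators, 30.3 for assembly and anchoring and 19.2 for the synthetases, against 77.4 for the members. All features of 10 to 50 FPKM had a median log2 ratio of 0.06 in the double deletion.

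The other ribosome and the respiratory chain differed from the members in different ways. Cytosolic ribosomal protein genes had medians of -0.12 in set1∆, -0.01 in set5∆, -0.30 in set1∆ set5∆ and -0.06 in SET5 Y402A, with 134 of 136 below WT in the double deletion. They are far more abundant than the mitochondrial ones, and all features above 500 FPKM had a median log2 ratio of -0.26 in that strain. The 36 nuclear subunits of the respiratory chain had medians of 0.24 in set1∆ and 0.00 in the double deletion, where 18 were lower and 18 higher. Against set1∆, however, 35 of 36 were lower in the double deletion, with a median of -0.22, beside 134 of 136 cytosolic ribosomal genes (-0.19) and 50 of 54 members (-0.10). Over all features 49.8% were lower, but 71.8% of those above 500 FPKM and 60.7% of those of 200 to 500 FPKM. On the deposited scale, lower values on the loss of SET5 from set1∆ were thus common to the 3 groups and to many abundant features. With equal sums 30 of 54 members were lower (55.6%), against 21.0% of all features.

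Among the regulators, PUF3 itself was scarce, with 9.99 FPKM in set1∆, 12.1 in set5∆, 10.5 in set1∆ set5∆, 9.94 in SET5 Y402A and 12.4 in WT. SFP1, a regulator of ribosomal protein genes, had 46.0 FPKM in set1∆ set5∆ and 39.9 in WT. HAP4, the regulatory activator subunit of the Hap complex, varied most of the 9 regulators, with 27.3 FPKM in set1∆, 89.9 in set5∆, 27.5 in set1∆ set5∆, 115 in SET5 Y402A and 47.5 in WT. It was low in both strains without SET1 and high in both SET5 mutants that carry SET1. Of 763 other coding genes with TGTANATA behind the stop codon, 392 were lower in the double deletion than in WT (51.4%), with a median of -0.01. Over 5017 without it, 48.9% were lower and the median was 0.01. Against set1∆ the shares lower were 56.6% and 47.8%, and against set5∆ the medians were -0.04 and 0.01. The groups were not matched to the members in level, and a role of Puf3 was not tested. These comparisons were added after the values were seen.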

How the data were processed

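RNA was extracted with the MasterPure kit and TruSeq RNA v2 libraries, which carry no strand information, were prepared from it, per the labels' protocols. The authors deposited FPKM values, scaled to transcript length and library size, in 1 column per strain although the labels list 2 replicates. The header names no unit, and FPKM was taken from the values, whose sums exceed what CPM or TPM allow. Per the submitters' processing notes the tools included TopHat2 2.0.5 and Cufflinks 2.0.2, along with Cuffdiff, FastQC and R 2.15.1, with no role stated for any. The sources used here state neither build nor annotation, nor how replicates entered a column. There were 0 unused columns.

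Members, names, classes and sequences come from RefSeq assembly R64, matched by locus tag (5934 of 6663 features). As the build behind the table is not known, no coordinates are given. Ratios used log2(FPKM + 1) for features whose mean reached 1 FPKM (Python 3.11.15, pandas 2.3.3, scipy 1.17.1), and the counting was tested on simulated data. Named were, per subunit, the 3 members with the highest and lowest mean, and per comparison and subunit some of the 3 highest and lowest ratios, together with members past 1.2-fold where there were at most 10 and up to 4 per related list. Further members were named after their values were seen. Members and lists were chosen with earlier results of these data known. Alternatives were another pseudocount, filter, scaling and membership.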

Additional observations from a re-analysis of the deposited data

Results flagged for a closer look

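Loss of SET5 moved the members in opposite directions in the 2 backgrounds. The median log2 ratio was -0.10 in set1∆ set5∆ over set1∆ and 0.04 in set5∆ over WT, a difference of -0.15. It was -0.15 for the large subunit (-0.11 against 0.04) and -0.14 for the small subunit (-0.10 against 0.05). With 1 value per strain this difference was not tested. With every strain brought to the same FPKM sum the members' medians were -0.01 and 0.01, a difference of -0.02, and those of all features 0.09 and -0.03, a difference of 0.13. Among single genes MRPL33 passed 1.2-fold in opposite directions on the deposited scale, and was not examined with equal sums. For SET5 it had -0.31 in set1∆ set5∆ over set1∆ and 0.27 in set5∆ over WT. For SET1 it had -0.28 in set1∆ set5∆ over set5∆ and 0.30 in set1∆ over WT. Each difference came to -0.58, since both equal the interaction, and neither was tested.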

How the results depend on the processing

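No paired analysis was possible because the table holds 1 value per strain, and no replicate could be left out for the same reason. Medians and correlations are called moved where they changed by over 1.5 times. Another filter and a pseudocount of 0.1 moved nothing. The lower median in the double deletion over WT kept its sign under the 8 other choices of pseudocount, filter, scaling and membership (-0.22 to -0.18), as did the interaction (-0.16 to -0.12). Bringing each strain to the same FPKM sum, added after the values were seen, shifted the median of all features by 0.20 in set1∆ set5∆ over WT, 0.10 in set1∆ over WT and 0.23 in set1∆ set5∆ over set5∆. The members' medians then were 0.0251 in set1∆ over WT, 0.0108 in set5∆ over WT, 0.00359 in set1∆ set5∆ over WT, -0.00829 over set1∆, -0.00901 over set5∆, 0.0217 in SET5 Y402A over set5∆ and -0.026 in the interaction. Relative to all features, the double deletion stayed at -0.20 over WT. That scaling left 4 members 1.2-fold lower and 7 higher in set1∆ set5∆ over WT, against 5.49% and 41.8% of all features.

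Small medians crossed or neared 0. In set5∆ over WT the median was 0.0156 with median centring and 0.0132 with quantile normalization. In SET5 Y402A over WT it was -0.0148 and -0.00332 under these scalings and -0.00788 with the proteins of other names. In SET5 Y402A over set5∆ it was 0.00115 with quantile normalization and -0.0347 with those proteins, which also gave -0.0504 in set1∆ over WT and a correlation of -0.252 for the loss of SET5. The cause was not tested.

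The large minus small difference never exceeded 0.07. In set1∆ over WT it was -0.00709 with quantile normalization, -0.0174 without overlapping members, -0.0682 with the proteins of other names and 0.00658 without MRPL38 and RSM22. In set5∆ over WT it was -0.00487 with a pseudocount of 10, 0.0127 with quantile normalization, -0.0205 with other names and -0.000892 without MRPL38 and RSM22. In the double deletion over WT these values were -0.0297, -0.00465, -0.0221 and -0.00433, and -0.0217 without overlapping members. In SET5 Y402A over WT they were 0.00443, -0.0417 and -0.0102 for quantile normalization, other names and the 2 genes left out.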

Other observations

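Mitochondrial ribosomal protein genes were rarely neighbours. Of the 54 members and 25 genes of other names, 2 pairs are adjacent in the annotation. MRPS12 and RSM19 lie on chromosome XIV in the same direction, 229 bases apart, and had log2 ratios of -0.21 and -0.17 in set1∆ set5∆ over WT and of 0.17 and 0.18 in set5∆ over WT. MRPL1 and MRX14 lie on chromosome IV and converge, 231 bases apart, with log2 ratios of -0.17 and -0.27 in set1∆ set5∆ over WT and of 0.13 and 0.09 in set5∆ over WT. VAR1, the ribosomal protein encoded in mitochondrial DNA, was not analysed here.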
